A study of Mus musculus with 15 samples.

Results

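The genes of the mitochondrial respiratory chain and ATP synthase were followed across 15 RNA-seq libraries of mouse embryonic fibroblasts. Members were taken by gene symbol alone, and 93 of the 14091 listed features qualified. Of these, 80 lie in the nuclear genome (35 of complex I, 4 of complex II, 8 of complex III, 16 of complex IV, 15 of complex V, and 2, Atp5s and Atp5sl, that carry an Atp5 name without encoding a subunit). The other 13 are the protein-coding genes of the mitochondrial genome, written with the prefix mt- (7 of complex I, 1 of complex III, 3 of complex IV and 2 of complex V). The symbol rule does not take in a few subunits with other names, among them Ndufab1 and Cyc1. All libraries came from fibroblasts of the ICR mouse stock, in 3 groups of 5. The MEF group is the control, with no virus named in its labels. The MGT and MΔGΔT groups were infected with retroviruses of those names and harvested 1 week later. The letters are those commonly used for the cardiac transcription factors Mef2c, Gata4 and Tbx5, which together turn fibroblasts towards heart muscle cells, and effector domains of MEF2C and GATA4 are what the series engineered, by its title. The labels do not say what Δ marks, list no fibroblasts given an empty virus, and do not say whether the 5 libraries of a group came from separate cultures, so p-values measure the spread between these libraries only.

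The respiratory chain passes electrons from NADH (complex I) and succinate (complex II) through ubiquinone, complex III and cytochrome c to oxygen at complex IV, and complex V uses the resulting proton gradient to make ATP. Complex II is encoded by nuclear genes throughout, while each of the others joins nuclear subunits to a few membrane subunits made in the mitochondrion from its own small circular genome. Heart muscle is rich in mitochondria, and a few complex IV subunits exist as a widely expressed form and a heart and skeletal muscle form, such as Cox6a1 and Cox6a2, or Cox7a2 and Cox7a1.

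Library totals ran from 8.21 M to 11.1 M counts. Levels are given in CPM, the usual depth-scaled count, on library sizes scaled by the trimmed mean of M values (TMM), a scaling that assumes most genes are unchanged. A gene is said to have risen or fallen where edgeR's quasi-likelihood test gave a Benjamini-Hochberg adjusted p under 0.05 over all 13328 tested features. Summed levels of 10 fibroblast markers stood at 56155 to 65127 CPM in MEF, 31473 to 32814 in MGT and 26701 to 28939 in MΔGΔT, and cardiac muscle markers at 7.99 to 8.37, 1415 to 1598 and 12022 to 13473 CPM. Macrophage markers, of which 14 of 15 were listed, summed to 3092 to 3909 CPM in MEF against 229 to 402 and 271 to 399 CPM, and endothelial markers to 47.3 to 52.05, 27.4 to 36.3 and 19.8 to 26.3 CPM. Single markers did not all follow their sum: of the 10 fibroblast markers 9 fell and 1, Vim, rose in MGT, and 8 fell and 2 rose in MΔGΔT, and endothelial Kdr rose in both. These markers moved with the groups, and their part in any respiratory chain difference was not tested. In bulk RNA, fewer cells of a type and less RNA per cell cannot be told apart. Within MEF, replicate 3 was the highest library for 54 of the 79 tested nuclear members and replicate 1 the lowest for 42, and replicates 1 and 4 stood apart for mt-Nd6 and mt-Nd3.

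Nuclear members moved little. In MGT against MEF, 30 of 79 tested members rose and 3 fell, with a median log2 fold change of 0.086. Over all tested genes, 30.9% rose and 30.3% fell in that comparison. In MΔGΔT against MEF, 40 rose and 9 fell (median 0.16), where 36.2% and 36.1% of all genes did. Directly between the transduced groups, 22 were higher and 8 lower in MΔGΔT than in MGT (median 0.035), against 30.4% and 27.8% of all genes. Both comparisons with MEF use the same 5 control libraries, so their values are given side by side and not counted as independent.

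Differences of this size depended on how the libraries were scaled. With totals implied by the deposited RPKM values, the count in MΔGΔT against MEF became 10 higher and 30 lower, while the median of all genes moved by -0.24 on the log2 scale. Between MΔGΔT and MGT that scaling gave 1 higher and 46 lower, with the median of all genes at -0.25. Library totals gave 28 higher and 13 lower, and 2 higher and 33 lower, with all-gene medians of -0.10 and -0.16. Calls are therefore marked below as held where they stood in the same direction under 5 scalings (TMM, library totals, upper-quartile factors, relative log expression factors and RPKM-implied totals). By that rule 25 nuclear members rose and 1 fell in MGT against MEF, beside 28.3% and 24.6% of all genes. In MΔGΔT against MEF 10 rose and 9 fell, beside 22% and 36%. Between MΔGΔT and MGT 1 was higher and 8 were lower, beside 14% and 27.8%. The rises in MGT were near the share found over all genes.

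**Figure D1:**
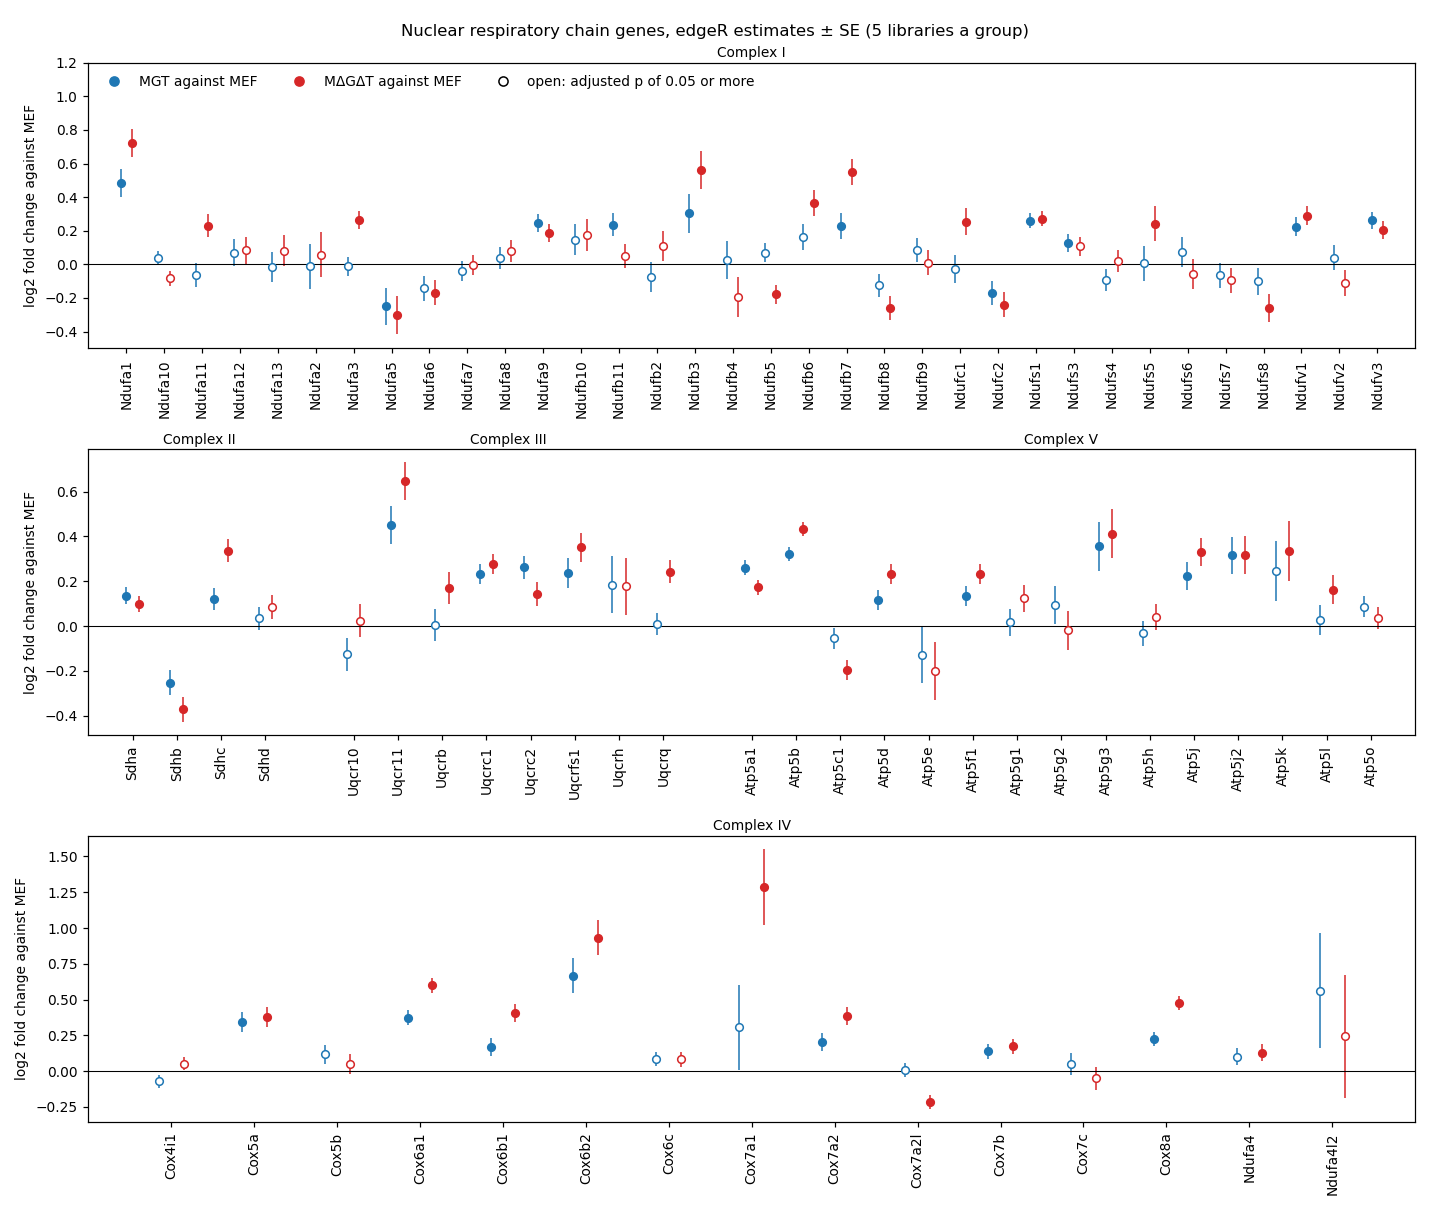
Log2 fold change against MEF of the tested nuclear respiratory chain genes reported here, grouped by complex, for MGT and MΔGΔT. Each point is 1 gene with its standard error, and open points have an adjusted p of 0.05 or more. Most points lie between -0.25 and 0.67, with Cox7a1 in MΔGΔT at 1.29.

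Complex I, the NADH dehydrogenase, had 10 members up and 2 down of 35 in MGT against MEF, and 13 up and 6 down in MΔGΔT. Of these, 9 and 4 rises held in 5 scalings, as did 0 and 6 falls. Core subunits, which carry the iron-sulfur clusters and the NADH and quinone sites, counted 4 up and 0 down of 7 in MGT and 3 and 1 in MΔGΔT. The 28 accessory subunits counted 6 up and 2 down, and 10 and 5. Over all genes, 30.9% rose and 30.3% fell in MGT, and 36.2% and 36.1% in MΔGΔT. Complex I rises made up 28.6% and 37.1% of its members, near those shares, and falls 5.71% and 17.1%, below them. Counts by complex and part are to be read beside these shares, and held counts beside the held shares above.

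Ndufa1, a small accessory subunit of the membrane arm, stood at 12.1, 13.03, 14.7, 13.8 and 14.6 CPM in MEF replicates 1 to 5, 18.2, 21.7, 20.2, 17.3 and 17.7 in MGT and 22.2, 24.4, 21.9, 20.5 and 23.2 in MΔGΔT. It rose by 0.48 ± 0.082 (SE, adjusted p = 2.6e-06) and 0.72 ± 0.082 (SE, adjusted p = 3.4e-10), both held. MEF lay below both transduced groups, which overlapped each other, and the difference between MΔGΔT and MGT (0.24) turned sign with RPKM-implied totals (-0.018). Ndufb7 and Ndufb3 showed held rises too, by 0.23 and 0.30 in MGT and by 0.55 and 0.56 in MΔGΔT. Ndufs1, Ndufv1, Ndufa9 and Ndufv3 rose in MGT by 0.26, 0.22, 0.25 and 0.26, all held, and in MΔGΔT by 0.27, 0.29, 0.18 and 0.20, which did not hold.

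Other subunits went down, among them the core subunit Ndufs8 and several accessory ones. Ndufb8 had 35.1 ± 4.603 CPM in MEF, 32.2 ± 1.86 in MGT and 29.4 ± 2.22 in MΔGΔT (SD, n = 5), and fell in MΔGΔT, with a held log2 fold change of -0.26 ± 0.072 (SE, adjusted p = 0.00167). Held falls in MΔGΔT were also found for Ndufa5 (-0.30), Ndufs8 (-0.26), Ndufc2 (-0.24), Ndufb5 (-0.18) and Ndufa6 (-0.17). In MGT, Ndufa5 and Ndufc2 fell, at -0.25 ± 0.11 (SE, adjusted p = 0.0463) and -0.17 ± 0.070 (SE, adjusted p = 0.0369), neither of them held. Between the transduced groups, held falls in MΔGΔT were those of Ndufb5 (-0.25 ± 0.057 SE, adjusted p = 0.000264), Ndufb11 (-0.19 ± 0.067 SE, adjusted p = 0.0153) and Ndufa10 (-0.12 ± 0.044 SE, adjusted p = 0.0176), among others. Ndufb7 (0.32) and Ndufa11 (0.29) were the largest rises there and did not hold. Ndufb5 shares 530 exon bases with Mrpl47 on the opposite strand. The directional kit keeps strand, but whether counting used it is not given in the sources used here. Per length, complex I ran from Ndufb2, at 2.18 RPKM in MEF, to Ndufa2 at 40.7 RPKM in MEF. Such ranks depend on the gene length behind each RPKM. In MEF replicate 1, Ndufb2 had 146 counts at 1.71 RPKM and Ndufa2 238 counts at 26.51 RPKM.

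Complex II, succinate dehydrogenase, split. Sdhb, its iron-sulfur subunit, stood at 71.8, 67.5, 76.3, 67.6 and 57.1 CPM in MEF, 54.7, 60.3, 54.6, 58.2 and 58.1 in MGT and 56.3, 50.2, 51.3, 51.5 and 53.9 in MΔGΔT. All MΔGΔT libraries lay below all MEF libraries, while MGT overlapped MEF through the lowest MEF library. Sdhb fell, with log2 fold changes of -0.25 ± 0.055 (SE, adjusted p = 0.00013) in MGT and -0.37 ± 0.057 (SE, adjusted p = 2.6e-07) in MΔGΔT, and both held. Sdha, the flavoprotein that oxidises succinate, stood at 149.6 ± 5.81, 164 ± 2.41 and 160.1 ± 5.26 CPM and rose by a held 0.14 ± 0.037 (SE, adjusted p = 0.0017) in MGT. In MΔGΔT Sdha was called at 0.099, which became -0.14 with RPKM-implied totals. The membrane anchor Sdhc had 75.4 ± 5.38, 82.1 ± 4.42 and 95.1 ± 5.66 CPM, with differences of 0.12 and 0.34 that did not hold. The other anchor, Sdhd, had 62.6 ± 5.29, 64.1 ± 3.72 and 66.3 ± 2.24 CPM and passed the test in neither comparison with MEF (adjusted p = 0.58 and 0.143).

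Complex III, the cytochrome bc1 complex, counted 4 members up and 0 down of 8 in MGT, all 4 held, and 6 up and 0 down in MΔGΔT, of which 1 held. The one that held was Uqcr11, a small accessory subunit, at 17.4, 21.6, 26.5, 26.4 and 20.97 CPM in MEF, 31.7, 34.4, 29.5, 27.2 and 30.99 in MGT and 34.2, 33.1, 36.4, 34.4 and 37.8 in MΔGΔT. All transduced libraries lay above all MEF libraries on this scaling. In deposited RPKM, MΔGΔT (28.44 to 34.53) overlapped MEF (17.69 to 28.62). The log2 fold changes of Uqcr11 were 0.45 ± 0.084 (SE, adjusted p = 2.1e-05) and 0.65 ± 0.084 (SE, adjusted p = 3.3e-08). Uqcr11 has a near-identical processed copy elsewhere in the genome, so reads could be divided between them. The other held rises in MGT were those of the Rieske iron-sulfur protein Uqcrfs1 (0.24 ± 0.065 SE, adjusted p = 0.0023) and the core proteins Uqcrc1 (0.23 ± 0.045 SE, adjusted p = 2.1e-05) and Uqcrc2 (0.26 ± 0.051 SE, adjusted p = 3.7e-05). Uqcrc2 was lower in MΔGΔT than in MGT, at a held -0.12 ± 0.051 (SE, adjusted p = 0.0431), and it shares 504 exon bases with Pdzd9 on the opposite strand. Uqcrq, another small subunit, was higher in MΔGΔT than in both other groups (0.24 against MEF and 0.23 against MGT), but neither call held, and the second became -0.021 with RPKM-implied totals.

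Complex IV, cytochrome c oxidase, counted 7 up and 0 down of 15 tested nuclear members in MGT and 9 up and 1 down in MΔGΔT. Of these 5 and 4 rises held, and the 1 fall. This is the complex with tissue forms, and the promoters of 3 of its isoform genes are shown because they belong to the muscle form that rose and to widely expressed forms it can be set beside. They are RefSeq sequences of GRCm38.p6, from 250 bases before to 50 after the gene start, written 5′ to 3′ on the gene's strand. Their gene start is that of RefSeq, which for these genes is not the start in the GENCODE positions given elsewhere. Capitals mark letters of searched motifs (on either strand) that bear on the delivered factors or on widely studied respiratory chain regulators: TANNNNTAG for MEF2, AGATAA for GATA, GCGCATGCG for NRF1 and CCGGAAG for ETS factors such as GABPA.
Cox7a1, chr7:30183921-30184220, plus strand: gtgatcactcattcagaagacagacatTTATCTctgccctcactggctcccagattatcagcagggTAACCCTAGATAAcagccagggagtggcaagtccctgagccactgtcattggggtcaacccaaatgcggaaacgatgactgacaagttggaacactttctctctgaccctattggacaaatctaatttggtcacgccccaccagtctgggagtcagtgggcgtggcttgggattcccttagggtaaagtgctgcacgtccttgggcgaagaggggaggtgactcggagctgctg
Cox7a2, chr9:79759804-79760103, minus strand: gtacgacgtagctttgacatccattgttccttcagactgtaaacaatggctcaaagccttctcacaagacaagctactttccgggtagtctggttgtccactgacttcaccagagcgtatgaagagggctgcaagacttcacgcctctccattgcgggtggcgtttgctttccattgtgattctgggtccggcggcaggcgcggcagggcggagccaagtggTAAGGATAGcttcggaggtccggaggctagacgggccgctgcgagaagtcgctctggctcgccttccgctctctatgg
Cox6a1, chr5:115348909-115349208, minus strand: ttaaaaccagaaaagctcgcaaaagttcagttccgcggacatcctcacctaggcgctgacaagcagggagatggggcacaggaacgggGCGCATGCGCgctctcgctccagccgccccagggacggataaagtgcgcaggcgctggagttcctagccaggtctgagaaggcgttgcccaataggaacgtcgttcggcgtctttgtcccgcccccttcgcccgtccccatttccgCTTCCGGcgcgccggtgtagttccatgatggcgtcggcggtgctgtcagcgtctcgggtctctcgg

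The Cox7a1 window held a MEF2 match at bases -184 to -176 from the RefSeq gene start and GATA matches at -223 to -218 on the opposite strand and at -177 to -172, where the last shares letters with the MEF2 match. Cox7a2 held a MEF2 match at -28 to -20. Cox6a1 held overlapping NRF1 matches on both strands at -162 to -154 and -161 to -153, and an ETS match on the opposite strand at -16 to -10. Of 32851 RefSeq windows, 21.04% held TANNNNTAG, 11.18% AGATAA, 1.75% GCGCATGCG and 8.858% CCGGAAG. Of the 80 nuclear members 64 had a window, and 10, 6, 8 and 15 of these held the respective motif. A stricter MEF2 form, TATTTTTA, was found in 2.718% of all windows and in 0 of the members', and the T-box letters AGGTGTGA in 1.275% and 0. A match is a description of the sequence and not a bound site.

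Cox7a1, the heart and skeletal muscle form (gene at chr7:30184144-30186078 in GENCODE), was low everywhere and highest in MΔGΔT. Its raw counts were 7, 5, 7, 8 and 7 in MEF, 13, 11, 11, 10 and 5 in MGT and 16, 19, 18, 17 and 16 in MΔGΔT. No MΔGΔT library overlapped the others. The log2 fold change was 1.29 ± 0.27 (SE, adjusted p = 4.8e-05) in MΔGΔT against MEF and 0.98 ± 0.24 (SE, adjusted p = 0.000692) against MGT, both held, and Cox7a1 was the one nuclear member held higher against MGT. In MGT against MEF it was 0.31 ± 0.30 (SE, adjusted p = 0.402). The widely expressed Cox7a2 stood at 44.5 ± 5.27, 51.2 ± 3.52 and 58.1 ± 3.88 CPM, rising by a held 0.20 in MGT and by 0.39 in MΔGΔT, which did not hold. Cox7a2l, which joins complexes III and IV into supercomplexes, stood at 98.9, 112, 125, 115 and 103 CPM in MEF, 108, 122, 109.7, 113 and 106 in MGT and 95.1, 94.98, 98.4, 98.1 and 91.1 in MΔGΔT. It fell in MΔGΔT, at -0.21 ± 0.050 (SE, adjusted p = 0.000265) against MEF and -0.22 ± 0.049 (SE, adjusted p = 0.000179) against MGT, both held. Cox7a2l, too, has a near-identical processed copy elsewhere, over 201 bases. Apart from 1 factor per library, its ratio of counts to RPKM varied over libraries. The coefficient of variation was 2.63%, against 0.331% for Cox7a2, so its counts and RPKM did not rest on quite the same reads. By length-scaled RPKM, Cox7a1 made up a mean 0.851% of the sum of these 3 genes in MEF, 0.992% in MGT and 2.08% in MΔGΔT, Cox7a2 28.9%, 32.3% and 38.2%, and Cox7a2l 70.3%, 66.7% and 59.7%.

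Cox6a2, the other muscle form (chr7:128205435-128206387), was too low for the test. Its counts were 1, 2, 2, 4 and 1 in MEF, 0, 0, 1, 2 and 0 in MGT and 5, 12, 7, 8 and 10 in MΔGΔT. Each MΔGΔT library had more counts than any MEF or MGT library. Summed over libraries and divided by library sizes, MΔGΔT stood at 4.09 times MEF (95% counting interval 2.02 to 9.15) and 16.2 times MGT (5.16 to 81.5), and MGT at 0.253 times MEF (0.0448 to 0.984). These intervals cover counting error only, not the spread between libraries. Deposited RPKM values of Cox6a2 were above 0 in the MGT libraries with 0 counts, so counts and RPKM did not rest on the same reads, and the gene shares 70 exon bases with Itgad on the opposite strand. Its share of the Cox6a1 and Cox6a2 RPKM was 0.910% in MEF, 0.365% in MGT and 2.57% in MΔGΔT.

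Cox6a1, the widely expressed partner, held most of the pair and rose as well. It stood at 63.1, 69.2, 82.3, 72.4 and 66.7 CPM in MEF, 91.9, 93.03, 89.99, 86.96 and 96.02 in MGT and 99.5, 105, 113, 109 and 108 in MΔGΔT, with the groups apart on this scaling. The changes against MEF were 0.37 ± 0.051 (SE, adjusted p = 5.0e-08) and 0.60 ± 0.051 (SE, adjusted p = 3.1e-13), both held. In deposited RPKM, MΔGΔT (76.28 to 89.17) overlapped both MGT (81.25 to 90.32) and MEF (56.64 to 78.15). The difference between MΔGΔT and MGT became -0.032 with RPKM-implied totals. Cox6b2, known as the testis form, rose from 5.16 ± 0.738 CPM to 8.19 ± 0.401 and 9.84 ± 1.33 by a held 0.67 ± 0.12 (SE, adjusted p = 7.9e-06) and 0.93 ± 0.12 (SE, adjusted p = 6.6e-09). Its share of the Cox6b1 and Cox6b2 RPKM was 3.36%, 4.68% and 4.77%. Cox6b1 was called up by 0.17 and 0.40, and neither held. Cox8a, the most abundant complex IV member per length at 99.8 RPKM in MEF, 117 in MGT and 118 in MΔGΔT, rose by a held 0.22 ± 0.048 (SE, adjusted p = 9.6e-05) and 0.48 ± 0.048 (SE, adjusted p = 1.4e-11). Cox5a, which lies on the matrix side, rose by a held 0.34 in MGT and by 0.38 in MΔGΔT, the latter not held. Cox4i1 stood at 138 ± 8.92, 131 ± 6.38 and 143 ± 6.93 CPM and was called in neither comparison with MEF (adjusted p = 0.161 and 0.284). Ndufa4, once assigned to complex I, had 0.10 (adjusted p = 0.127) and 0.13 (adjusted p = 0.049), the second turning to -0.11 with RPKM-implied totals. Its relative Ndufa4l2 was called in neither (adjusted p = 0.247 and 0.629). Cox4i2, Cox7b2, Cox8b and Cox8c are not among the listed features by symbol.

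**Figure D2:**
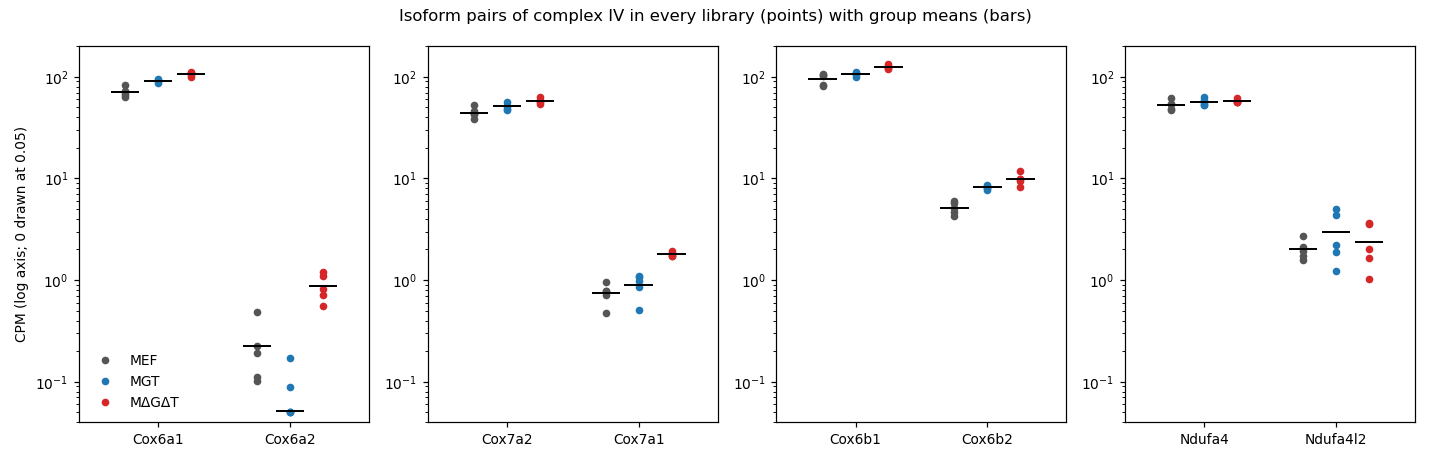
Level in each library, in CPM on a log axis, of widely expressed and tissue forms: Cox6a1 and Cox6a2, Cox7a2 and Cox7a1, Cox6b1 and Cox6b2, Ndufa4 and Ndufa4l2. Each point is 1 library, values of 0 are drawn at 0.05, and in MΔGΔT the points of Cox6a2 and Cox7a1 lie above all MEF and MGT points.

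Complex V, the ATP synthase, counted 7 up and 0 down of 15 in MGT (6 rises held) and 9 up and 1 down in MΔGΔT (1 and 1 held). The catalytic head had 3 of 5 up in MGT, and the stalk and membrane part 4 of 10. Atp5b, the catalytic beta subunit (chr10:128083273-128090391), stood at 599, 602, 652, 618 and 590.4 CPM in MEF, 762, 783, 733, 776 and 773 in MGT and 807, 829, 835, 817 and 844 in MΔGΔT. The groups did not overlap on this scaling. In deposited RPKM, MΔGΔT (100.27 to 114.03) overlapped both MEF (85.94 to 102.8) and MGT (109.79 to 126.01). Atp5b rose by 0.32 ± 0.032 (SE, adjusted p = 1.5e-11) and 0.43 ± 0.032 (SE, adjusted p = 2.5e-15), both held, while the difference between the transduced groups (0.11) became -0.063 with library totals and -0.15 with RPKM-implied totals. Atp5a1, the alpha subunit, had 483 ± 21.7, 578 ± 18.8 and 544 ± 7.14 CPM and rose by a held 0.26 ± 0.033 (SE, adjusted p = 9.0e-09) in MGT, with a held -0.088 ± 0.033 (SE, adjusted p = 0.0225) between MΔGΔT and MGT. In MΔGΔT against MEF its 0.17 became -0.066 with RPKM-implied totals. The gamma subunit Atp5c1, the rotor inside the head, went the other way in MΔGΔT. It stood at 87.3 ± 5.11, 84.04 ± 4.92 and 76.1 ± 1.56 CPM and fell, at -0.20 ± 0.046 (SE, adjusted p = 0.000248) against MEF and -0.14 ± 0.046 (SE, adjusted p = 0.00765) against MGT, both held. The head subunit Atp5d was called up by 0.11 and 0.23, the second becoming -0.0040 with RPKM-implied totals.

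The membrane ring of complex V is built from 1 small protein encoded by 3 genes. Of these Atp5g3 rose, from 90.5 ± 17.5 CPM to 116 ± 6.099 in MGT (held, 0.36 ± 0.11 SE, adjusted p = 0.0121) and 120.2 ± 2.79 in MΔGΔT (0.41, not held). Atp5g1 had 0.016 and 0.12 (adjusted p = 0.829 and 0.064), and Atp5g2 0.093 and -0.018 (adjusted p = 0.36 and 0.86). Per length, Atp5g3 made up 39.1% of the trio in MEF, 44.5% in MGT and 46.5% in MΔGΔT, and Atp5g2 50.1%, 45.8% and 42.98%. These shares depend on the gene lengths behind RPKM, and for Atp5g2 on the reads as well. Apart from 1 factor per library, its ratio of counts to RPKM varied over libraries. The coefficient of variation was 6.59%, against 0.0101% for Atp5g3. In MEF replicate 1, Atp5g1 had 434 counts at 6.68 RPKM and Atp5g2 398 counts at 35.72 RPKM. Atp5g1 and Atp5g2 are among 13 nuclear members with a near-identical processed copy (pseudogene or processed transcript) elsewhere, to which reads could go. Atp5s, not a subunit, was higher in MΔGΔT than in MEF (0.58 ± 0.17 SE, adjusted p = 0.00248) and MGT (0.59), at 3.94, 3.91 and 5.86 CPM, but neither call held.

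The mitochondrial genes came with 2 readouts that did not match. The deposited table gives raw counts and RPKM side by side. Reads implied by RPKM and gene length were scaled on mt-Nd1, mt-Nd2, mt-Nd5, mt-Nd6 and mt-Cytb, which have no near-identical nuclear copy among annotated transcripts. For mt-Co2, 684 bases long, the counts were 11, 9, 15, 8 and 9 in MEF, 13, 4, 13, 6 and 5 in MGT and 12, 20, 11, 10 and 11 in MΔGΔT, while its RPKM was 1259, 968, 1087, 1182 and 1007 in MEF. The counts were a median 0.0850% of the implied reads (0.0357% to 0.153% over libraries), so this major transcript is nearly missing from the counts and present in the RPKM. The same held for mt-Co3 (0.0927%), mt-Atp6 (0.247%), mt-Nd4l (1.10%) and mt-Nd3 (2.44%). Each of these 5 genes lies 99% to 99.9% inside a near-identical unprocessed pseudogene on chromosome 1. Of the genes copied in part, mt-Co1, 31.3% copied, had 65.5% (64.8% to 66.6%), and mt-Nd4, 63.6% copied, had 34% (31.9% to 40.2%). No fall was seen for mt-Atp8, which is 21.1% copied and had 100.1%, like the genes with no copy.

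How close the copies are is shown by the first 23 transcript bases of mt-Nd3 (from the GENCODE M21 transcripts, 5′ to 3′), with the base that differs from the chromosome 1 copy Gm28438 in capitals. The substitution is T3C, counted from 1 at the 5′ end.
mt-Nd3: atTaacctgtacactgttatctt
Gm28438: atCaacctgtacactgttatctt
Of 7 such pseudogenes, 0 are among the listed features. Levels of mt- genes are therefore given from the deposited RPKM, rescaled to the TMM library sizes, and tested with limma on log2(value + 0.1), an analysis added after the mismatch was seen. Fold changes are on that scale. Over all 13329 features of this fit, 31.4% rose and 30% fell in MGT against MEF, 36.8% and 36.6% in MΔGΔT against MEF, and 30.2% and 27.9% between MΔGΔT and MGT. For nuclear members, the counts called were 29 up and 2 down, 39 and 9, and 18 and 7, of 79.

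**Figure D3:**
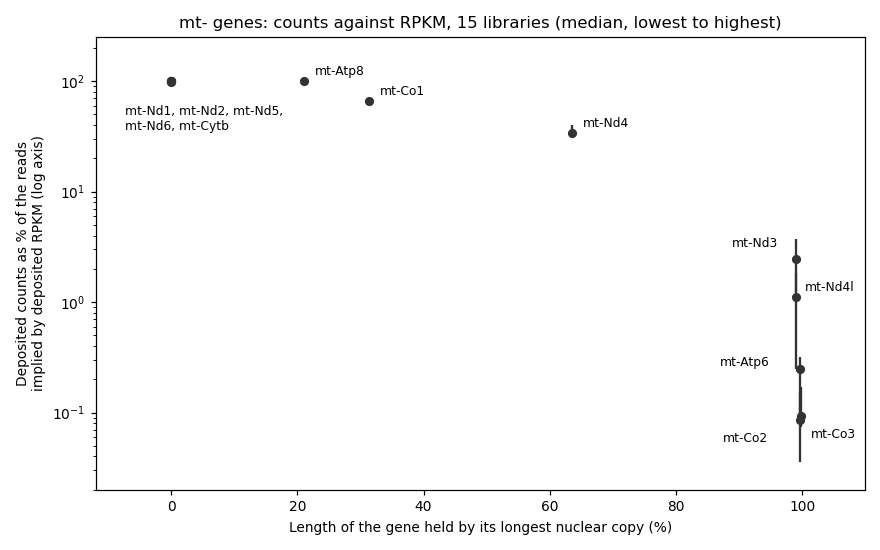
Deposited counts as a percentage of the reads implied by deposited RPKM (log axis), against the percentage of each mt- gene that lies in its longest near-identical nuclear copy. Genes with no such copy and mt-Atp8, 21.1% copied, lie near 100%, mt-Co1 at 65.5%, mt-Nd4 at 34%, and the 5 genes copied over almost their whole length between 0.0850% and 2.44%.

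On TMM-scaled libraries, most mitochondrial transcripts were higher in MΔGΔT. Of the 13 genes, 7 rose and 0 fell in MΔGΔT against MEF (median log2 fold change 0.40), and 11 were higher and 0 lower than in MGT (median 0.49). In MGT against MEF, 0 rose and 5 fell (median -0.13). On counts, edgeR called 6 up and 0 down of 12 in MΔGΔT against MEF, 9 and 0 against MGT, and 0 and 1 in MGT against MEF, and 2, 5 and 1 of these calls held in 5 scalings. Those that held against MEF were mt-Co1 and mt-Atp8. Of the 12, 8 remain without the genes copied over nearly their whole length. Of those 8, 5 were up and 0 down in MΔGΔT against MEF, and 7 and 0 against MGT.

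Complex IV gave the highest mitochondrial levels. The catalytic subunit mt-Co1 stood at 1636, 1216, 1314, 1398 and 1242 rescaled RPKM in MEF, 1233, 1411, 1140.2, 1254 and 1177 in MGT and 2013, 1826, 1664, 2249 and 1902 in MΔGΔT. MEF and MGT overlapped and MΔGΔT lay above both. It rose by 0.51 ± 0.084 (SE, adjusted p = 3.4e-05) in MΔGΔT against MEF and 0.63 ± 0.084 (SE, adjusted p = 4.5e-06) against MGT. The copper-binding subunit mt-Co2 stood at 1041 ± 111, 871 ± 63.1 and 1268 ± 143 rescaled RPKM (SD, n = 5). It fell in MGT, at -0.26 ± 0.077 (SE, adjusted p = 0.00801), and rose in MΔGΔT by 0.28 ± 0.077 (SE, adjusted p = 0.00304). For mt-Co3 the means were 1471 ± 202, 1187 ± 101 and 1493 ± 144, with -0.30 ± 0.083 (SE, adjusted p = 0.00437) in MGT and 0.027 ± 0.083 (SE, adjusted p = 0.782) in MΔGΔT. Levels relative to MEF depend on the scaling here too. As deposited, before rescaling, RPKM of mt-Co1 averaged 1439 ± 186 in MEF, 1333 ± 149 in MGT and 1725 ± 151 in MΔGΔT. That of mt-Co2 averaged 1100.3 ± 121, 933 ± 90.5 and 1133 ± 99.1, so the MΔGΔT mean lay within 1 SD of the MEF mean. That of mt-Co3 averaged 1553 ± 208, 1273 ± 145 and 1335 ± 92.7, with MΔGΔT below MEF. No test was run on the values before rescaling.

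Among complex I genes, mt-Nd4l showed the largest rise in MΔGΔT, with 105, 79.1, 74.2, 82.7 and 85.6 rescaled RPKM in MEF, 96.3, 90.1, 98.8, 83.1 and 80.3 in MGT and 162, 127, 130.1, 181 and 135 in MΔGΔT. All MΔGΔT libraries lay above all others, by 0.78 ± 0.10 (SE, adjusted p = 2.7e-06) against MEF and 0.70 ± 0.10 (SE, adjusted p = 1.6e-05) against MGT. Its neighbour in the same transcript, mt-Nd4, rose by 0.56 ± 0.077 (SE, adjusted p = 3.5e-06) and 0.56 ± 0.077 (SE, adjusted p = 6.4e-06), from 209 ± 25.8 in MEF to 307 ± 30.4. The membrane-arm subunit mt-Nd2 rose by 0.44 ± 0.095 (SE, adjusted p = 0.000474) against MEF, whereas mt-Nd1 (0.18 ± 0.097 SE, adjusted p = 0.102) and mt-Nd5 (0.067 ± 0.12 SE, adjusted p = 0.642) did not pass the test there. Against MGT, both mt-Nd1 (0.41) and mt-Nd5 (0.38) were higher in MΔGΔT (adjusted p = 0.00179 and 0.0155). For mt-Nd3 no comparison was called, and its MEF values, 56.99, 111, 136, 32.7 and 160.3, were lowest in replicates 4 and 1. As deposited, before rescaling, RPKM of mt-Nd4l averaged 89.9 ± 10.9 in MEF and 131 ± 16.5 in MΔGΔT. That of mt-Nd4 averaged 220 ± 25.7 and 274 ± 19.3. For mt-Nd2 the means were 102 ± 15.5 and 117 ± 9.73, within 1 SD of MEF. No test was run on these unrescaled values.

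The exception was mt-Nd6, the one member encoded on the opposite (light) strand of the mitochondrial genome. It stood at 151, 86.4, 98.5, 149 and 92.5 CPM in MEF, 80.7, 90.3, 63.3, 38.5 and 49.7 in MGT and 84.8, 62.1, 53.5, 101 and 85.7 in MΔGΔT. MEF replicates 1 and 4 were the highest of all libraries. With edgeR, mt-Nd6 fell in MGT, at -0.84 ± 0.26 (SE, adjusted p = 0.0136), held in 5 scalings, and had -0.57 ± 0.26 (SE, adjusted p = 0.0629) in MΔGΔT. Without MEF replicates 1 and 4, a choice made after seeing these values, edgeR called 0 mt- genes in MGT against MEF, 6 up and 0 down in MΔGΔT against MEF, and 8 and 0 against MGT. With limma on RPKM, leaving them out gave 0 up and 1 down (mt-Co3, -0.24, adjusted p = 0.014), 9 and 0, and 12 and 0.

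The genes of complexes III and V were read the same way. Cytochrome b, mt-Cytb, the catalytic core of complex III, stood at 399 ± 51.7, 371 ± 27.05 and 524 ± 58.3 rescaled RPKM and rose by 0.40 ± 0.083 (SE, adjusted p = 0.000365) in MΔGΔT against MEF. Of the complex V genes, mt-Atp8 rose by 0.75 ± 0.14 (SE, adjusted p = 0.00017), from 49.5 ± 8.93 to 83.3 ± 17.02. The overlapping gene mt-Atp6, the proton channel subunit, had 0.18 ± 0.083 (SE, adjusted p = 0.063) in MΔGΔT against MEF, fell in MGT, at -0.23 ± 0.083 (SE, adjusted p = 0.0213), and was higher in MΔGΔT than in MGT by 0.41 ± 0.083 (SE, adjusted p = 0.000367). As deposited, before rescaling, RPKM of mt-Cytb averaged 422 ± 55.9 in MEF and 469 ± 44 in MΔGΔT, a difference smaller than the MEF SD. That of mt-Atp8 averaged 52.1 ± 8.27 and 74.3 ± 13.1. For mt-Atp6 the means were 854 ± 107 and 817 ± 76.2, with MΔGΔT below MEF. These values before rescaling were not tested.

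**Figure D4:**
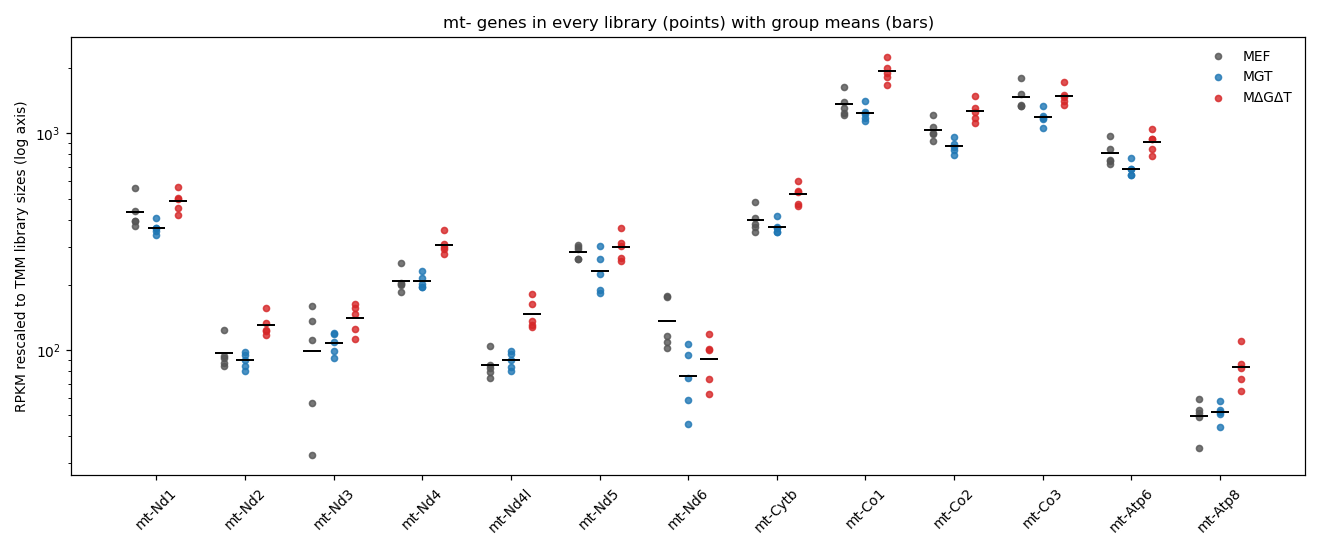
Deposited RPKM rescaled to TMM library sizes (log axis) of the 13 mt- genes in each of the 15 libraries, 1 point per library. For mt-Co1 and mt-Nd4l all MΔGΔT points lie above all MGT points, and for mt-Nd6 MEF replicates 1 and 4 are the highest.

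Set against each other, the sums of the 2 genomes went different ways in MGT, a description with no test. Summed rescaled RPKM of the 13 mt- genes was 6473 ± 752 in MEF, 5578 ± 439 in MGT and 7817 ± 858 in MΔGΔT (SD, n = 5), with ranges of 5799 to 7750, 5168 to 6304 and 6855 to 9127. The nuclear sum was 1885 ± 147, 2066 ± 74.1 and 2154 ± 48.3. Their ratio was 3.46 ± 0.575 in MEF (3.07 to 4.45), 2.70 ± 0.140 in MGT (2.53 to 2.88) and 3.63 ± 0.459 in MΔGΔT (3.10 to 4.32). MGT ratios lay below all others, while MEF and MΔGΔT overlapped. The ratio is taken within a library and does not depend on the scaling. The sums do depend on it. As shares of all raw counts, the nuclear sum averaged 0.470% in MEF, 0.558% in MGT and 0.507% in MΔGΔT. The mitochondrial sum averaged 0.501%, 0.468% and 0.600%. With RPKM-implied totals the dependence was larger. In counts, the median log2 fold change of nuclear members in MΔGΔT against MEF turned from 0.16 to -0.076. That of mt- genes went from 0.46 to 0.22. Sums were not taken on that scaling, so the higher MΔGΔT sums are those of TMM. The 5 copied genes made up 54.2%, 52.7% and 50.7% of the mitochondrial RPKM sum in the 3 groups. In the raw counts, the ratio was 1.07 ± 0.168, 0.838 ± 0.0642 and 1.18 ± 0.153. Raw counts nearly lack these 5 genes and are not scaled by gene length, so the sizes of the count and RPKM ratios are not comparable.

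**Figure D5:**
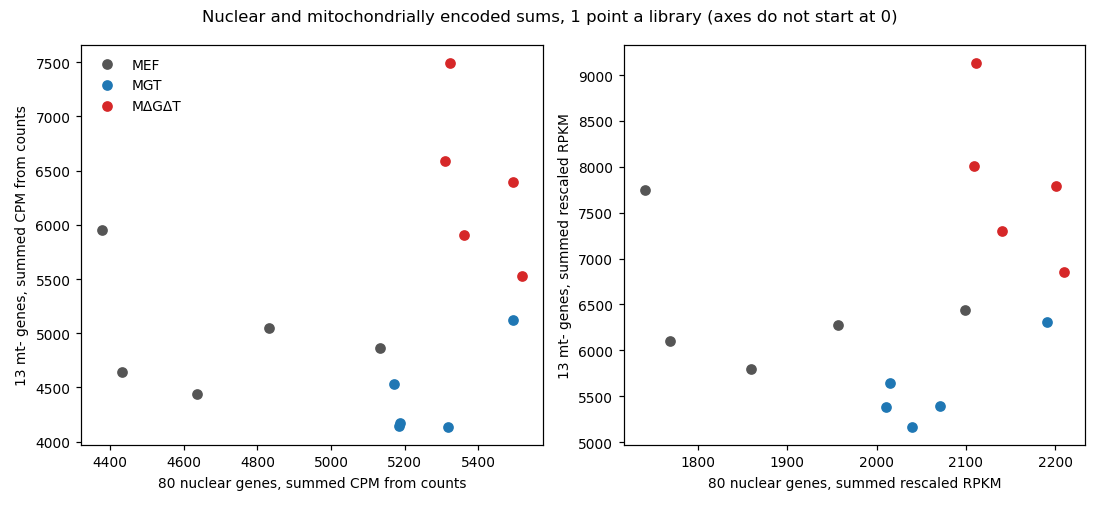
Summed level of the nuclear members against that of the mt- genes, 1 point per library, in CPM from counts and in rescaled RPKM. The axes do not start at 0. In rescaled RPKM the MGT mean lies below the MEF mean on the mitochondrial sum (5578 against 6473) and above it on the nuclear sum (2066 against 1885). On this TMM scaling the MΔGΔT mean is the highest on both (7817 and 2154). As a share of raw counts, the nuclear mean is higher in MGT (0.558%) than in MΔGΔT (0.507%). With RPKM-implied totals, the median log2 fold change of nuclear members in MΔGΔT against MEF is -0.076.

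Genes that build and serve the chain were read from lists chosen with earlier results of these data known, so their directions are no independent evidence. Their calls, too, depended on the scaling, and the number that held in all 5 follows each count. Over all genes, 30.9% rose and 30.3% fell in MGT, and 36.2% and 36.1% in MΔGΔT. The all-gene shares that held were 28.3% and 24.6%, and 22% and 36%. Of 17 complex I assembly factors 1 rose and 0 fell in MGT (1 and 0 held), and 5 and 2 in MΔGΔT (1 and 2 held), with Timmdc1, a membrane-arm assembly factor, at a held 0.55 ± 0.083 (SE, adjusted p = 2.4e-07) in MΔGΔT. Of 10 factors for complexes II and III, 1 rose and 1 fell in MGT (both held), and 2 and 2 in MΔGΔT (1 and 2 held). Of 21 factors for complex IV, 4 rose and 3 fell in MGT (3 and 2 held), and 6 and 3 in MΔGΔT (3 and 3 held). Among them Cox20 and the copper chaperone Cox17 rose by 0.81 ± 0.17 (SE, adjusted p = 7.7e-05) and 0.64 ± 0.15 (SE, adjusted p = 0.000428) in MGT and by 1.46 and 1.05 in MΔGΔT, and Coa3 fell, at -0.48 and -0.52, all held. Of 4 ATP synthase factors, 2 rose and 0 fell in MGT (2 and 0 held), and 2 and 1 in MΔGΔT (0 and 1 held). The head assembly factor Atpaf1 rose in MGT by a held 0.71 ± 0.097 (SE, adjusted p = 4.6e-08), and its 0.31 ± 0.10 (SE, adjusted p = 0.00912) in MΔGΔT did not hold. The inhibitor Atpif1 fell in MΔGΔT, at a held -0.34 ± 0.065 (SE, adjusted p = 1.6e-05).

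Of 29 tested genes for mitochondrial DNA and RNA upkeep, 6 rose and 3 fell in MGT (3 and 0 held), shares below those over all genes. In MΔGΔT 4 rose and 7 fell against MEF (0 and 7 held), and 5 were higher and 10 lower than in MGT (0 and 10 held). The 10 lower than in MGT are 34.5% of the list. Over all genes, 30.4% were higher and 27.8% lower than in MGT (14% and 27.8% held). With RPKM-implied totals the list had 0 higher and 19 lower against MEF, and 0 and 20 against MGT. Hsd17b10, a part of mitochondrial RNase P, stood at -0.53 ± 0.070 (SE, adjusted p = 1.1e-08) in MΔGΔT on the log2 scale, Grsf1, an RNA-binding protein of mitochondrial granules, at -0.34 ± 0.049 (SE, adjusted p = 1.1e-07), and Lrpprc, which stabilises mitochondrial mRNAs, at -0.21 ± 0.043 (SE, adjusted p = 3.2e-05), all held. Of 11 genes for mitochondrial translation and insertion, 1 rose and 1 fell in MGT (1 and 0 held), and 2 and 2 in MΔGΔT (1 and 2 held). The inner membrane insertase gene Oxa1l fell in MΔGΔT, at a held -0.52 ± 0.055 (SE, adjusted p = 7.2e-11).

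Of 13 regulators of respiratory chain genes, 5 rose and 2 fell in MGT (5 and 0 held) and 6 and 2 in MΔGΔT (3 and 2 held). The calls named here held. Esrrg, a nuclear receptor of oxidative tissues, rose from 3.03 ± 0.775 CPM to 15.7 ± 1.44 and 30.8 ± 0.989, by 2.35 ± 0.12 (SE, adjusted p = 4.6e-20) and 3.32 ± 0.11 (SE, adjusted p = 9.6e-27). The coactivator gene Ppargc1b rose by 0.76 ± 0.13 (SE, adjusted p = 4.5e-06) and 1.28 ± 0.13 (SE, adjusted p = 1.0e-11). Its relative Ppargc1a fell in MΔGΔT, at -1.36 ± 0.18 (SE, adjusted p = 7.8e-09), and had -0.028 ± 0.14 (SE, adjusted p = 0.877) in MGT. Hif1a, the oxygen-regulated factor, rose by 0.12 and 0.65 ± 0.040 (SE, adjusted p = 1.0e-17).

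Enzymes that feed the chain, carriers and protective enzymes came last. Of 17 citric acid cycle genes, 11 rose and 0 fell in MGT (10 and 0 held). In MΔGΔT 12 rose and 3 fell (4 and 3 held), which became 4 and 6 with RPKM-implied totals. Idh3a, of the NAD-linked isocitrate dehydrogenase, went from 48.8 ± 2.102 to 84.4 ± 5.07 and 124 ± 3.08 CPM, by a held 0.79 ± 0.047 (SE, adjusted p = 5.4e-18) and 1.35 ± 0.046 (SE, adjusted p = 3.5e-26). The NADP-linked enzyme gene Idh2 rose in MGT, by 0.44 ± 0.039 (SE, adjusted p = 6.9e-13), and fell in MΔGΔT, at -1.01 ± 0.043 (SE, adjusted p = 8.0e-23), both held. Of 14 genes for ubiquinone and cytochrome c, 2 rose and 1 fell in MGT (2 and 1 held), and 5 and 4 in MΔGΔT (2 and 4 held). Coq8a, a ubiquinone synthesis regulator, rose by a held 1.86 ± 0.13 (SE, adjusted p = 4.0e-16) and 2.02 ± 0.13 (SE, adjusted p = 2.0e-17), while the 0.49 ± 0.13 (SE, adjusted p = 0.00109) of cytochrome c, Cycs, in MΔGΔT did not hold. Of 7 nucleotide, phosphate and uncoupling carriers, 5 rose and 1 fell in both (5 and 1 held in MGT, 3 and 1 in MΔGΔT). The phosphate carrier Slc25a3 rose by 0.26 ± 0.034 (SE, adjusted p = 1.3e-08) and 0.42 ± 0.034 (SE, adjusted p = 2.4e-14), and Ucp2 fell, at -1.59 ± 0.049 (SE, adjusted p = 3.4e-27) and -2.35 ± 0.054 (SE, adjusted p = 5.5e-32), all held. Of 8 antioxidant genes, 3 rose and 2 fell in MGT (3 and 1 held), and 5 and 1 in MΔGΔT (2 and 0 held), the latter becoming 2 and 3 with RPKM-implied totals. The mitochondrial superoxide dismutase gene Sod2 rose in MGT by a held 0.20 ± 0.053 (SE, adjusted p = 0.0014), and its 0.32 ± 0.054 (SE, adjusted p = 1.8e-06) in MΔGΔT did not hold.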

How the data were processed

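RNA was sequenced from fibroblasts as total RNA depleted of ribosomal RNA, in directional libraries, per the labels' protocols. Raw counts, normalized signal values (each count times 1 constant per library), their log2 values and RPKM were deposited by the authors per the file headers. Per the submitters' processing notes the genome build was mm10. No mapper, counting tool or use of strand in counting is named in the labels or headers. The signal and log2 columns deposited by the authors were not used in tests.

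Counts were fitted with edgeR 4.0.16 (R 4.3.3; TMM, filterByExpr, robust quasi-likelihood, 1 mean per group, all 15 libraries, 12 residual degrees of freedom, biological coefficient of variation 4.86%). Of 14091 features 13328 were tested, among them 79 of 80 nuclear and 12 of 13 mt- members. Cox6a2 and mt-Nd4l failed the filter on low counts. RPKM, rescaled to TMM library sizes, were tested with limma 3.58.1 (pseudocount 0.1). DESeq2 1.42.0 was an alternative. In the file, 21 features are dates (0.258% of counts), since a spreadsheet had changed their symbols. Gene positions came from GENCODE M21, where 92 of 93 members matched by symbol (Atp5o at more than 1 gene). Near-identical copies are alignments to GENCODE M21 transcripts, of at least 100 bases at 98% identity or more. For mt- genes shorter alignments of higher identity were also kept, such as the 43 bases of mt-Atp8. The rest of the genome was not searched. Members, gene lists and tests were chosen with earlier results of these data known. Members were named as follows: all listed isoforms of the paired genes, all mt- genes, the 4 Sdh genes, and, per complex and comparison, the 2 called members with the largest rise and fall (mean log2 CPM above 1). Of each list, the named genes are drawn from the 3 with the smallest adjusted p per comparison. Others named were chosen after their values were seen. For 1 complex I member, included in the counts of calls, values are not reported here.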

Additional observations from a re-analysis of the deposited data

Results flagged for a closer look

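Of 148 sets of 5 libraries examined (1 member in 1 group), 3 held a library whose gap to its nearest neighbour, over the whole range, was above the limit of 0.71. Chance flags about 1 in 20 such sets. Sdhd stood at 71.7 CPM in MEF replicate 3, with the other MEF libraries at 58.9 to 61.9. In MEF replicate 1, mt-Nd2 stood at 210.3 CPM, with the others at 143 to 159. Ndufa4 stood at 61.6 CPM in MΔGΔT replicate 3, with the others at 56.1 to 57.6.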

How the results depend on the processing

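Scaling mattered most. With RPKM-implied totals, nuclear calls were 10 higher and 30 lower in MΔGΔT against MEF (median -0.076), and 1 higher and 46 lower in MΔGΔT against MGT (median -0.22). The mt- calls were then 2 higher and 1 lower against MEF (median 0.22), and 5 higher against MGT (median 0.26). With library totals, nuclear medians were 0.16, 0.067 and -0.14 in MGT against MEF, MΔGΔT against MEF and MΔGΔT against MGT, the last with 2 higher and 33 lower. The mt- calls with library totals had 1 higher in MGT against MEF and 1 lower in MΔGΔT against MEF, and the median against MGT was 0.35. Upper-quartile factors gave nuclear medians of 0.078 in MΔGΔT against MEF and -0.024 against MGT, the latter with 12 higher and 17 lower, and 1 mt- gene lower in MΔGΔT against MEF. DESeq2 gave 1 lower there too. In MGT against MEF, 1 nuclear member was lower with library totals, RPKM-implied totals or DESeq2. Fitting the transduced groups alone gave 13 nuclear members lower in MΔGΔT than in MGT.

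Signs turned with RPKM-implied totals in MΔGΔT against MEF for Atp5a1 (-0.066), Atp5d (-0.0040), Cox4i1 (-0.19), Cox7b (-0.065), Ndufa11 (-0.0069), Ndufa4 (-0.11), Ndufb11 (-0.19), Sdha (-0.14), Sdhd (-0.15) and Uqcrc2 (-0.096). In MΔGΔT against MGT they turned with library totals and RPKM-implied totals for Atp5b (-0.063 and -0.15), Atp5d (-0.054 and -0.14), Cox4i1 (-0.049 and -0.13), Cox7b (-0.14 and -0.22), Ndufa4 (-0.15 and -0.23) and Sdhd (-0.12 and -0.21). With RPKM-implied totals alone they turned for Cox6a1 (-0.032), Cox6b1 (-0.019), Cox7a2 (-0.073), Cox8a (-0.0019), Ndufa1 (-0.018), Sdhc (-0.044), Uqcr11 (-0.062) and Uqcrq (-0.021). Members not followed singly could turn too, among them Atp5f1, Atp5l, Atp5g1, Atp5h and Atp5o in MΔGΔT against MEF. These settings shift all genes at once, by up to -0.25 in the median. With deposited RPKM, mt- genes had 5 lower in MGT against MEF, and mt-Atp6 turned to -0.23.

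Without MEF replicates 1 and 4, chosen after seeing the data, 5 nuclear members and 0 mt- genes were lower in MGT against MEF. Leaving out 1 library at a time, nuclear calls ran from 25 to 33 higher and 1 to 5 lower in MGT against MEF (median 0.053 to 0.11), 34 to 41 and 7 to 11 in MΔGΔT against MEF (0.11 to 0.17), and 16 to 24 and 4 to 9 between MΔGΔT and MGT (0.026 to 0.054). The mt- calls ran from 0 to 1 higher and 1 to 2 lower (median -0.18 to -0.057), 5 to 7 and 0 to 1 (0.35 to 0.49), and 7 to 9 and 0 (0.48 to 0.56). Over the values of the members followed singly, under the settings run, 2712 kept direction and side of the threshold, 180 lost the call, 53 gained it, 31 turned sign and 4 without a test moved.

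Same-numbered libraries did not deviate together (15 correlations, -0.092 to 0.067, with 3 of 15 highest for their own number). With the replicate number as a block, nuclear calls were 30 higher and 3 lower, 39 and 9, and 20 and 7, and mt- calls 0 and 1, 5 and 0, and 8 and 0. The planned setting without mitochondrial ribosomal RNA was not run, since mt-Rnr1 and mt-Rnr2 are not among the listed features. Depth limits Cox6a2, with 10, 3 and 42 counts per group.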
